A study of Rattus norvegicus with 12 samples.

Results

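The HOX genes are the positional identity genes of the body axis, and 32 of them were followed in diabetic rat skin wounds. The members were chosen by symbol alone, as every row named Hox with a cluster letter from a to d and a number. They made up 32 of 25620 genes in the table of read counts, and the same 32 of 25524 genes in the FPKM table (fragments per kilobase of transcript, scaled to library size, a level that is corrected for length). HOXA on chromosome 4 had 9 members, HOXB on chromosome 10 had 8, HOXC on chromosome 7 had 8 and HOXD on chromosome 3 had 7. The other known HOX genes have no row under such a symbol and were not analysed here.

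The samples were pieces of wound tissue from male Sprague Dawley rats made diabetic with streptozotocin, each wounded by a full-thickness punch in the skin of the back. Wounds were left with saline (control) or covered with d-SMG, a freeze-dried adhesive glue of snail mucus, with s-GAG (labelled GAG in the sample records), the sulfated glycosaminoglycan of that mucus, or with Alg, a commercial alginate dressing. Tissue was taken on days 3, 7 and 14, and each of the 12 combinations of treatment and day had 1 library of RNA sequencing. Each treatment thus had 3 libraries, 1 a day, and each day 4, 1 a treatment, while no combination of treatment and day was repeated, so a library that stood apart cannot be told apart from its combination. Whether a library came from 1 animal or from several was not stated.

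HOX genes encode homeodomain transcription factors, and each cluster lies on its chromosome in the order in which its genes are used along the body, low numbers towards the head and high numbers towards the tail and the tips of the limbs. Adult fibroblasts keep much of the HOX pattern of the place they came from, which is why skin from different sites can be told apart by it. Hoxc13 has a further role, since it is switched on in the matrix of the growing hair, where it drives hair keratin genes. In pieces of tissue, fewer cells of a type and less RNA per cell cannot be told apart.

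Libraries held from 13748887 to 38302461 reads on genes, of which 1076 to 3941 fell on HOX genes. Between libraries, levels are given as CPM, read counts scaled to a common library size by edgeR's TMM method, and between genes as FPKM. The 12 libraries differed in what tissue they held. The summed level of 15 skeletal muscle genes ran from 6202 CPM in d-SMG day 7 to 248030 in d-SMG day 3, and that of 12 keratinocyte genes from 56.4 in d-SMG day 3 to 35152 in s-GAG day 14, so the d-SMG day 3 library had little signal of epidermis, with Krt5 at 7.88 and Krt14 at 21.1. The summed level of 15 fibroblast genes ran from 8170 in d-SMG day 3 to 51364 in control day 7. Its TMM factor, 0.741, and that of s-GAG day 14, 0.744, were the lowest. The s-GAG day 14 library also stood apart by gene length. There, genes whose reads and FPKM implied a transcript of at least 4 kb lay at a median of -0.58 (log2) from their mean over the 12 libraries, and shorter genes at 0.49. In the other 11 libraries these medians ran from -0.16 to 0.21 and from -0.15 to 0.15. The main HOX shares, the profile correlations, the ranges of members and the s-GAG test of Hoxc13 are given with and without these 2 libraries. Other results, such as the correlations of genes with Hoxc13, are given with all 12 libraries only.

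The HOX profile had the same leading members in nearly every piece. Hoxb7 and Hoxc9 were among the 5 highest members by FPKM in all 12 libraries, and Hoxa7 and Hoxc8 in 11. Hoxb7 was first in 10 libraries and Hoxc8 in the other 2. In mean level Hoxb7 led HOXB with 11.9 FPKM, Hoxc8 led HOXC with 8.83, Hoxa7 led HOXA with 3.48 and Hoxd8 led HOXD with 3.22. All 4 are central genes of the axis, and 12 of the 32 members had a mean of at least 1 FPKM.

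**Figure D1:**
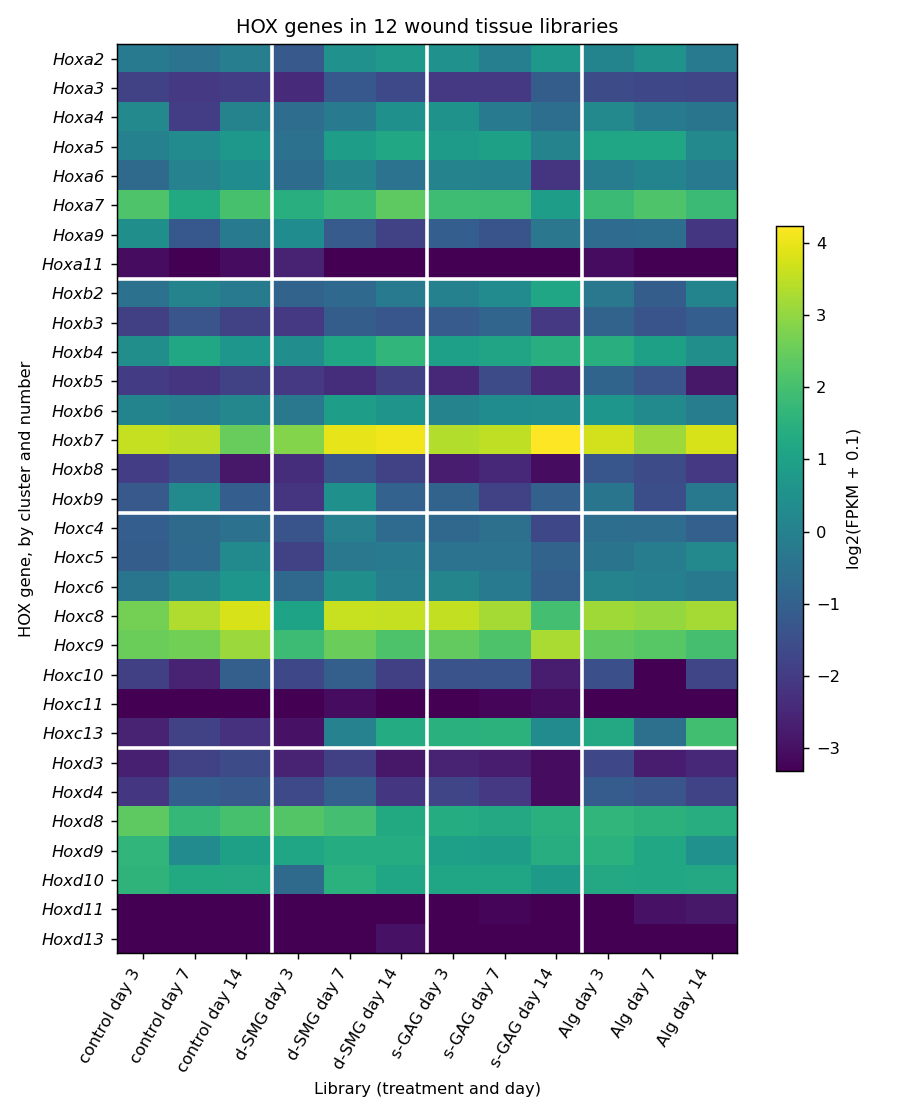
Level of 31 of the 32 HOX genes (rows, by cluster) in each of the 12 libraries (columns, by treatment and day), as log2(FPKM + 0.1), with white lines between clusters and treatments. Hoxb7, Hoxc8 and Hoxc9 form the bright rows, Hoxa11, Hoxc11, Hoxd11 and Hoxd13 the dark ones, and Hoxc13 is dark in the 3 control libraries and in d-SMG day 3.

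By number along the axis, central members (groups 4 to 8, 15 genes) held a median of 70.5% of the HOX FPKM, from 62.2% in s-GAG day 14 to 75.8% in d-SMG day 14. Posterior members (groups 9 to 13, 11 genes) held a median of 24.3% (19.3% to 29.5%) and anterior members (groups 1 to 3, 6 genes) 5.01% (3.65% to 8.23%). The order central, posterior, anterior was thus the same in each library. The clusters varied more. HOXB ran from 18.0% in control day 14 to 46.9% in s-GAG day 14, and HOXC from 22.3% in d-SMG day 3 to 48.0% in control day 14. HOXA held 11.5% to 22.4% and HOXD 11.3% to 24.9%. Without d-SMG day 3 and s-GAG day 14, central members held 68.7% to 75.8%, HOXB 18.0% to 37.0% and HOXC 27.6% to 48.0%. Summed over all members, HOX expression was 86.5 CPM in d-SMG day 3, the lowest, and 125 in s-GAG day 14, the highest, with a median of 103.

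**Figure D2:**
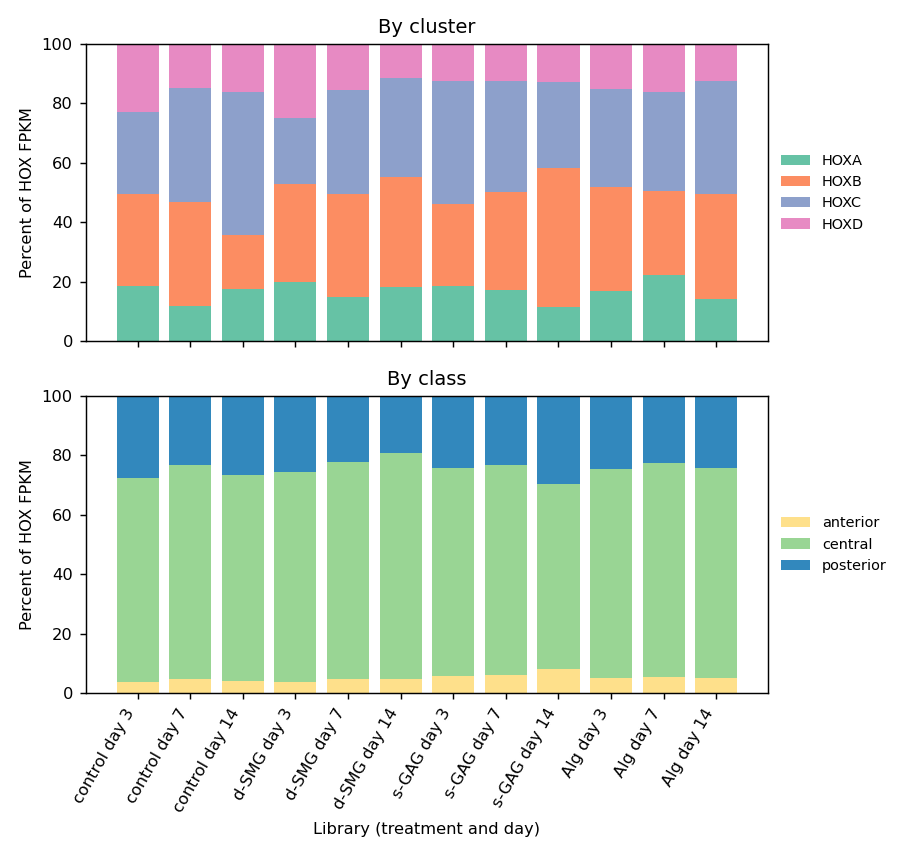
Percent of the summed HOX FPKM held by each cluster (top) and by anterior, central and posterior members (bottom) in each library. Central members hold 62.2% to 75.8% of the total in every library, while the HOXB and HOXC shares trade places between control day 14 and s-GAG day 14.

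Ranked by FPKM, the 32 members gave a Spearman correlation between libraries with a median of 0.900 over the 66 pairs of libraries, from 0.746 (d-SMG day 3 with Alg day 14) to 0.981 (s-GAG day 3 with Alg day 3). Over all genes the median was 0.940 (0.864 to 0.962). These are correlations across genes, which are not independent replicates, and the members at or near 0 in every library raise them. Pairs of the same day had a median of 0.900 (18 pairs), pairs of the same treatment 0.916 (12 pairs) and pairs sharing neither 0.892 (36 pairs). The profile was least like the others in d-SMG day 3, with a median of 0.844 against the other 11 libraries, followed by control day 7 with 0.867 and control day 3 with 0.883. The remaining libraries had medians from 0.890 to 0.941. Without d-SMG day 3 and s-GAG day 14, the median over the 45 remaining pairs was 0.924 for the members (0.803 to 0.981) and 0.946 for all genes (0.927 to 0.962).

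The posterior end of the profile was nearly silent apart from 1 gene. Hoxa11 had 6 reads over the 12 libraries, Hoxc11 had 3, Hoxd11 had 3 and Hoxd13 had 1. These genes pattern the distal limb, and their 13 reads together compare with 613 for Hoxc13. Of the group 10 members, Hoxd10 had a mean of 2.11 FPKM, while Hoxc10 had 0.21 and no read in Alg day 7. No read among the 15664603 on genes there allows up to 3 reads, or 0.203 CPM.

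Hoxc13, the hair gene, varied most of the members. Its reads on days 3, 7 and 14 were 3, 5 and 4 in the control wounds. They were 1, 29 and 62 with d-SMG. With s-GAG they were 77, 196 and 40, and with Alg 79, 17 and 100. In CPM, the 3 controls ran from 0.13 to 0.34, and 8 of the 9 dressed wounds from 1.15 to 6.21. How many of all genes show such a gap was not counted. The exception was d-SMG day 3 at 0.080, below all controls and under the 0.241 that 3 reads make there.

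**Figure D3:**
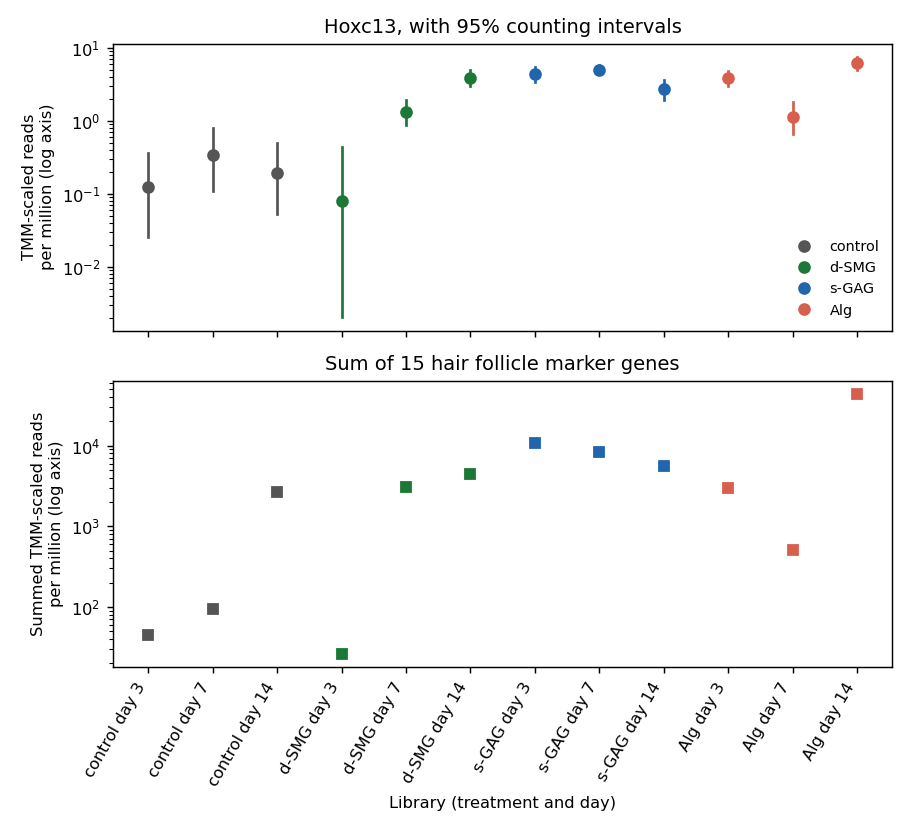
Hoxc13 in CPM with 95% counting intervals (top, log axis), and the summed level of 15 hair follicle marker genes (bottom, log axis), in each library. Hoxc13 is at or under 0.34 in the controls and in d-SMG day 3 and at 1.15 to 6.21 elsewhere, and the hair follicle sum is lowest in d-SMG day 3, control day 3 and control day 7.

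Against the control of the same day, Hoxc13 under s-GAG was 35.0 times as high on day 3 (95% counting interval 11.6 to 174), 14.8 times on day 7 (6.23 to 46.1) and 14.0 times on day 14 (5.05 to 53.7). Under Alg it was 30.7 times (10.1 to 152), 3.38 times (1.196 to 11.7) and 31.8 times (12.05 to 119) as high on days 3, 7 and 14. Under d-SMG it was 0.64 times on day 3 (0.012 to 7.95), 3.91 times on day 7 (1.497 to 12.9) and 20.0 times on day 14 (7.42 to 75.6). These intervals cover counting error alone, and each rests on 3 to 5 control reads. All 3 dressings share 1 control library a day, so the 3 ratios of a day are not independent.

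With edgeR's quasi-likelihood test of the 12 libraries, with day and treatment as terms, Hoxc13 had a log2 fold change of 4.36 (SE 1.06, FDR = 0.417) for s-GAG against control. For Alg it was 4.04 (SE 1.07, FDR = 1) and for d-SMG 2.73 (SE 1.06, FDR = 1) by the same test. The d-SMG value was 1.64 without d-SMG day 14. Each had an unadjusted p under 0.05, and none passed an FDR of 0.05. By DESeq2, Hoxc13 passed for s-GAG (adjusted p = 0.00106) and for Alg (adjusted p = 0.0119), but not for d-SMG (adjusted p = 1). DESeq2 called 1.79% of the 16110 genes tested for s-GAG and 0.546% for Alg. Without d-SMG day 3 and s-GAG day 14, a choice made after seeing the data, edgeR gave Hoxc13 a log2 fold change of 4.81 for s-GAG (FDR = 0.0343), and then 1.11% of the genes tested were called. Over time Hoxc13 did not move one way across treatments. Day 14 against day 3 gave a log2 fold change of 1.07 (SE 0.845, edgeR FDR = 0.897), which ran from 0.41 without d-SMG day 3 to 1.73 without Alg day 3 and was 0.50 without d-SMG day 14.

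Hoxc13 moved with the hair genes of these libraries. The sum of 15 hair follicle markers on days 3, 7 and 14 was 45.2, 95.1 and 2669 CPM in controls, and 25.9, 3048 and 4425 with d-SMG. With s-GAG it was 10686, 8458 and 5561, and with Alg 2992, 507 and 43886. The 3 libraries highest in Hoxc13 were the 3 highest in this sum, and the 5 lowest were the 5 lowest. At other cut-offs the match was partial, with 3 of the 4 highest, 4 of the 5 highest and 2 of the 3 lowest shared. Against the sum of the 12 hair matrix genes described below, 2 of the 3 highest were shared. Tchh alone made up much of the marker sum, at 34875 CPM in Alg day 14, 8071 in s-GAG day 3 and 6616 in s-GAG day 7. Hoxc13 and the marker sum parted in control day 14, with 4 reads of Hoxc13 and a sum near that of Alg day 3. Tchh made 2332 CPM of the sum in control day 14 and 1941 in Alg day 3. In s-GAG day 14 Hoxc13 stood at 2.73 CPM, though Krt25 was at its highest there, 1939 CPM. The sum of the 12 hair matrix genes was also highest there, at 1562. Whether hair follicle content accounts for the Hoxc13 differences was not tested.

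Of 12 hair matrix genes listed beside Hoxc13, 11 were higher under s-GAG at an unadjusted p under 0.05, 10 under Alg and 4 under d-SMG, and none was lower (edgeR, 0 called at FDR 0.05). Such a p was found for 9.26%, 3.12% and 1.35% of all genes tested in these contrasts, in either direction. The list was chosen for its tie to Hoxc13 and holds hair keratins (Krt35, Krt85, Krt32 and Krt82) as well as regulators. Lef1, the transcription factor of Wnt signalling, ran from 1.43 to 4.91 CPM in controls and reached 89.0 in s-GAG day 14. Msx2, a homeobox gene of the hair matrix, ran from 0.61 to 0.88 in controls and reached 43.1 in s-GAG day 14. Krt35, a hair keratin, ran from 0.084 to 2.15 in controls and reached 826 in the same library. Lef1, Msx2 and Krt35 were next highest in Alg day 14, at 52.0, 17.1 and 267. Foxn1, whose loss gives the nude phenotype, ran from 0.14 to 0.93 in controls and reached 9.75 in Alg day 14. Not every dressed library was above the controls. In d-SMG day 3, Lef1 stood at 0.64, Msx2 at 0.24 and Foxn1 at 0.080, below all 3 controls, and Krt35 at 0.24, within their range. In Alg day 7, Lef1 at 4.81 and Foxn1 at 0.88 were within the range of the controls, while Msx2 at 1.35 and Krt35 at 4.67 were above it.

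Among 12054 named genes that reached 100 reads in some library, the 10 whose log2 level followed Hoxc13 most closely over the 12 libraries were Rnf180 (Pearson r = 0.978), Mycn (0.961), Slc7a11 (0.955), Spout1 (0.951), Psip1 (0.945), Lef1 (0.944), Ninl (0.938), Ccnd2 (0.937), Tgm6 (0.936) and Dsg4 (0.936). These r are picked as the highest of many and describe these libraries, which share their tissue make-up. Dsg4 is a desmoglein of the hair shaft. Among HOX members, Hoxb3 was the most like Hoxc13 (r = 0.732) and Hoxd8 the least (r = -0.891), followed by Hoxa9 (r = -0.721).

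Hoxa9, a posterior gene known also from blood progenitors and limb, had the second largest spread over the 12 libraries of the members tested (SD 1.09, log2). Among the 16 members that reached 100 reads in some library, the ratio of the highest to the lowest library was 77.2 for Hoxc13 (95% counting interval 13.5 to 3081, on 1 read in the lowest), 13.6 for Hoxa9 (7.11 to 29.2) and 7.36 for Hoxa6 (3.96 to 15.2). It was 5.06 for Hoxc8, 4.64 for Hoxa2 and 4.52 for Hoxb7. The steadiest were Hoxa7 at 1.99 (1.30 to 3.10), Hoxc4 at 2.51 and Hoxb3 at 2.70. Both ends were picked as extremes, so the ratios describe the range only. Much of this range lay in the 2 libraries that stood apart. Over the other 10 libraries the ratio was 49.3 for Hoxc13 and 10.8 for Hoxa9, while the other 14 members ran from 1.57 for Hoxd10 to 2.71 for Hoxb7, with Hoxa6 at 2.30 and Hoxc8 at 2.19. Hoxa7 and Hoxa9 lie close together in HOXA and yet stood near opposite ends of the order over all 12 libraries. Over the other 10 libraries Hoxa7 had a ratio of 1.99, with Hoxd10 and Hoxc4 (1.95) below it.

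The 250 bases before the annotated start of both genes, and of Hoxd8, the leading HOXD member, are shown from RefSeq (assembly GRCr8), as 2 neighbours in 1 cluster with unlike behaviour and a further gene whose 4 highest libraries were the same 4 as those of Hoxa9. They are read 5′ to 3′ on the strand of the gene, and capitals mark the motif TATAAA. The build of the deposited files is not given in the sources used here, so the positions belong to GRCr8 only.
Hoxa9, chr4:82657049-82657298, minus strand: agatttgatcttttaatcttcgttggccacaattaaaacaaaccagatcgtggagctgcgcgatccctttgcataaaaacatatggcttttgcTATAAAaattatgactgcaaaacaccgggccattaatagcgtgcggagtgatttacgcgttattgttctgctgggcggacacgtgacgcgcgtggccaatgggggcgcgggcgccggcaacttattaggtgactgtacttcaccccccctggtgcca
Hoxa7, chr4:82648242-82648491, minus strand: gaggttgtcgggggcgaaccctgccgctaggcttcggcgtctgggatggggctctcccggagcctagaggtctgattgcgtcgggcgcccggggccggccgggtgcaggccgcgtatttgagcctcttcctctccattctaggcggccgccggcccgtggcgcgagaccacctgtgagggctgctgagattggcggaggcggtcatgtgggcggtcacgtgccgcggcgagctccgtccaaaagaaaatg
Hoxd8, chr3:80014973-80015222, plus strand: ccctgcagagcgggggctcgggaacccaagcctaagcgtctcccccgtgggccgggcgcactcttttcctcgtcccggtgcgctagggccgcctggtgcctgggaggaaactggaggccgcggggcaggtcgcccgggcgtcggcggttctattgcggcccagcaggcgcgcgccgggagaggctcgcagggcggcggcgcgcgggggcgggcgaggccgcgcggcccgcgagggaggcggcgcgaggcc
TATAAA, searched on both strands, stood once before Hoxa9, 157 bases upstream of the start, and not before Hoxa7 or Hoxd8. It was in 12.9% of the 33469 promoters of this length. CAGCTG, a site type bound by muscle regulators among others and the same on both strands, was in none of these 3 and in 11.97% of all. Of the 32 members, 15 had an entry, and they held a median of 20 CG pairs (3 to 38) against 5 over all promoters. Hoxa9 had 18, Hoxa7 28 and Hoxd8 38. A match is a description of letters, not a site in use.

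In CPM, Hoxa9 stood at 6.72, 1.77 and 4.15 in controls on days 3, 7 and 14, and at 8.44, 1.52 and 0.88 with d-SMG. With s-GAG it stood at 1.89, 1.55 and 4.91 and with Alg at 2.69, 3.32 and 0.62. The treatments overlapped, and the highest library and the lowest but one were both d-SMG. By edgeR no contrast of treatment or day was called for Hoxa9, and day 7 against day 3 gave the largest log2 fold change, -1.16 (SE 0.782, FDR = 0.999). Hoxa7 stood between 2.32 and 4.61 CPM in all 12 libraries.

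**Figure D4:**
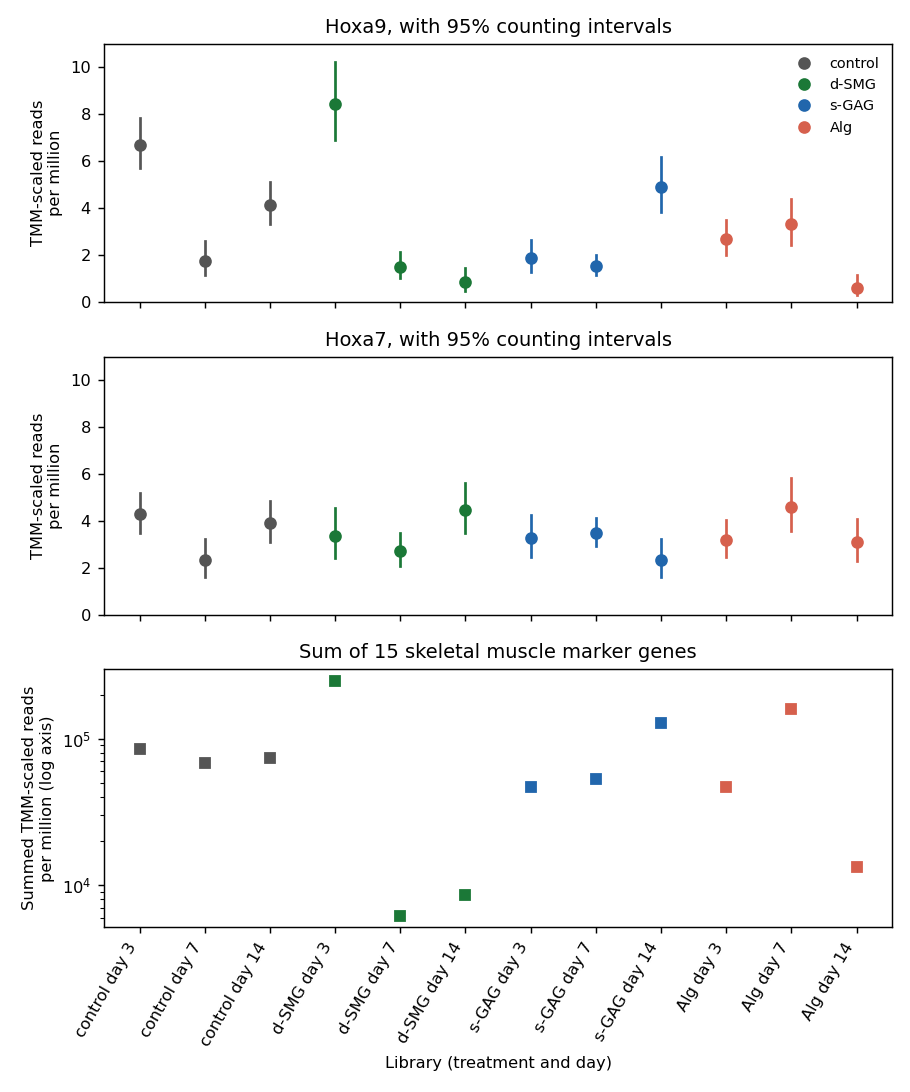
Hoxa9 and Hoxa7 in CPM with 95% counting intervals (top and middle, same linear axis), and the summed level of 15 skeletal muscle genes (bottom, log axis), in each library. Hoxa9 spans 0.62 to 8.44 and Hoxa7 2.32 to 4.61. The 5 libraries highest in Hoxa9 are the 5 highest in the muscle sum, while of the 3 highest 2 are shared.

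The 5 libraries highest in Hoxa9 (d-SMG day 3, control day 3, s-GAG day 14, control day 14 and Alg day 7) were the 5 highest in the muscle sum, at 248030, 85318, 128877, 73517 and 159931 CPM. The 3 lowest in Hoxa9 (Alg day 14, d-SMG day 14 and d-SMG day 7) were the 3 lowest in that sum, at 13248, 8532 and 6202. At other cut-offs the match was partial. Of the highest, 2 of 3 and 3 of 4 were shared, and of the lowest, 3 of 4 and 3 of 5. All 15 muscle genes had reads in every library. Hoxd8 shared 4 of its 5 highest libraries with the muscle sum, but 1 of its 3 highest and 1 of its 3 lowest. It ran from 4.72 CPM in d-SMG day 14 to 14.0 in d-SMG day 3. The part of muscle in these levels was not tested.

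Ratios of 2 members within a library do not depend on how libraries are scaled, and 4 pairs were looked at after their values were seen. Reads of Hoxc8 to Hoxc9, neighbours in HOXC, ran from 1.43 to 3.75 in 10 libraries. The exceptions were d-SMG day 3 at 0.76 (95% counting interval 0.50 to 1.14) and s-GAG day 14 at 0.54 (0.42 to 0.69). In d-SMG day 3 Hoxc8 was low, with 44 reads or 3.54 CPM, while Hoxc9 stood at 4.66. In s-GAG day 14 Hoxc9 was high, at 12.5 against 3.60 to 8.34 in the other libraries. Hoxc8 was also low there, at 6.74 CPM, and lower only in d-SMG day 3. Reads of Hoxc6 to Hoxc9 ran from 1.28 to 2.47 in 11 libraries and were 0.45 (0.34 to 0.59) in s-GAG day 14, where Hoxc6 was at its lowest, 5.65 CPM. Hoxc6 and Hoxc9 differ in implied length, 11.1 against 1.005 kb, and s-GAG day 14 stood apart by gene length. The part of length in this ratio was not tested.

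Reads of Hoxa9 to Hoxa5 were above 1 in control day 3 (2.35, 1.76 to 3.17), d-SMG day 3 (3.18, 2.13 to 4.86) and s-GAG day 14 (1.24, 0.87 to 1.79), and ran from 0.14 to 0.86 in the other 9 libraries. Reads of Hoxd8 to Hoxd10 ran from 1.23 to 2.02 in 11 libraries and were 10.2 (6.21 to 18.0) in d-SMG day 3, where Hoxd10 had 17 reads. The libraries that departed were thus the same few, and the groups they belong to were not set apart as a whole.

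**Figure D5:**
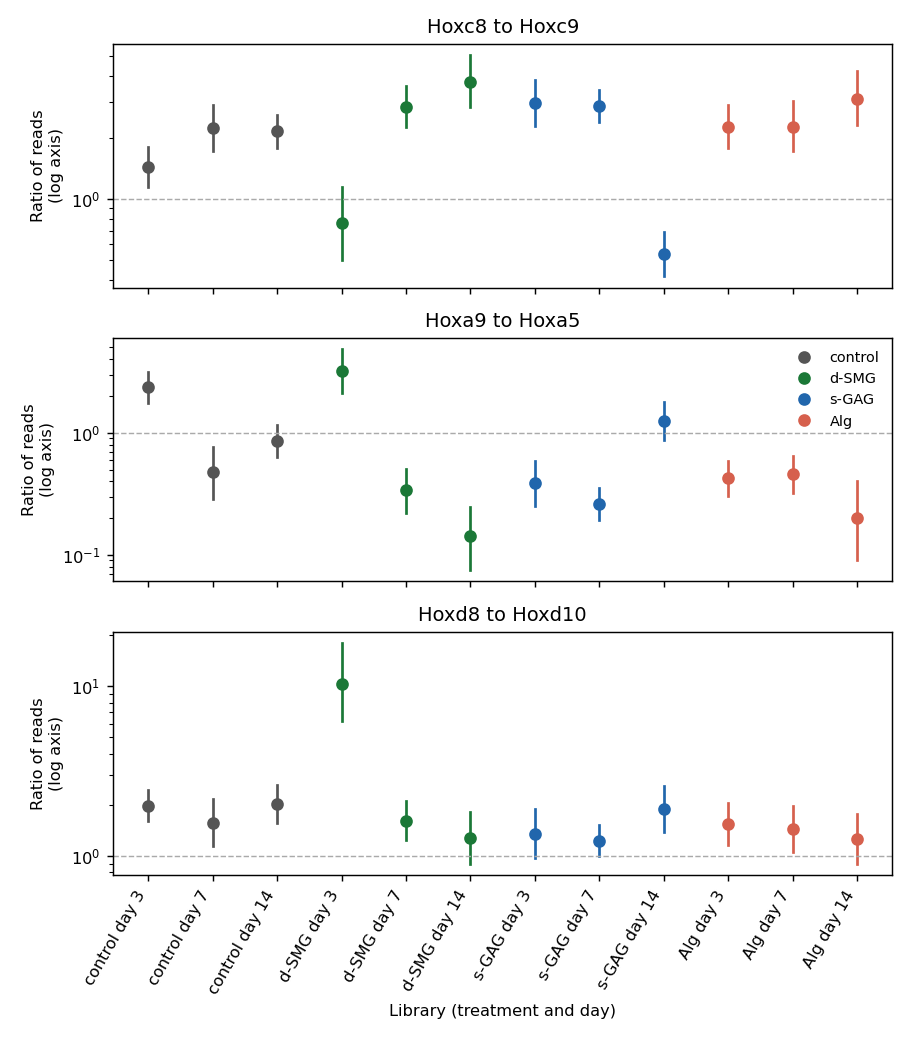
Ratio of the reads of 2 HOX genes within each library, with 95% counting intervals, on log axes, for Hoxc8 to Hoxc9, Hoxa9 to Hoxa5 and Hoxd8 to Hoxd10. The dashed line marks equal reads. Hoxd8 to Hoxd10 is 10.2 in d-SMG day 3 and 1.23 to 2.02 elsewhere, and Hoxc8 to Hoxc9 is under 1 in d-SMG day 3 and s-GAG day 14 only.

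Of the 27 members tested, d-SMG day 3 held the lowest level of 9, and s-GAG day 14 the lowest of 7 and the highest of 8. How many of all genes tested had their extremes in these 2 libraries was not counted. Over all genes they were also the least like the others, with median Spearman correlations of 0.909 and 0.910. In s-GAG day 14, Hoxa6 had 11 reads (0.75 CPM against 2.39 to 5.51 elsewhere), and Hoxd4 had 4 (0.27 against 1.20 to 3.89). Hoxb7 was instead highest there, at 32.6 against 7.22 to 19.6. Of the members tested, 7 had an implied length of at least 4 kb, and in that library their median deviation from the 12-library mean was -0.67 (log2), against 0.21 for the 20 shorter members. Hoxd4 (10.2 kb) and Hoxa6 (4.72 kb) were low and Hoxb7 (1.33 kb) and Hoxc9 (1.005 kb) high, but Hoxc8 (1.34 kb) was low as well and Hoxa9 (5.45 kb) was high. The part of gene length in these levels was not tested. Hoxc6 had an implied length of 11.1 kb. Hoxc4, Hoxc5 and Hoxc6 share transcribed sequence, so how their reads were divided is uncertain, and the strand setting of the counting is not given in the sources used here.

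Across the whole table, edgeR called no gene at FDR 0.05 in any of the 8 comparisons (percent called 0), which set each dressing against control, each pair of days against each other, and all treatments or all days together. At an unadjusted p under 0.05, 2 of the 27 members tested passed for any treatment (Hoxc13 and Hoxb8, beside 3.30% of all genes) and 0 for any day (beside 3.09%). For s-GAG 3 members passed beside 9.26% of all genes, for d-SMG 1 beside 1.35% and for Alg 1 beside 3.12%. Between days, 0 passed for day 7 against day 3 (beside 1.81%), 1 for day 14 against day 3 (beside 4.95%) and 1 for day 14 against day 7 (beside 3.12%). DESeq2 called 1 member among any treatment, Hoxc13, beside 0.652% of all genes, and none among the days.

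The members other than Hoxc13 with such a p were few, and were singled out after their values were seen. Under s-GAG, Hoxd4 had -1.54 (SE 0.643, edgeR FDR = 0.533), which ran from -2.20 without control day 3 to -0.83 without control day 14 and was -1.04 without s-GAG day 14. Hoxc5 had 0.94 for day 14 against day 3 (SE 0.383, edgeR FDR = 0.882), and Hoxb8 had -1.27 for day 14 against day 7 (SE 0.548, edgeR FDR = 0.904), with at most 14 reads in a library.

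The median log2 fold change of the 27 members was 0.02 for d-SMG, 0.03 for s-GAG and 0.06 for Alg against control, beside -0.03, 0.00 and -0.03 over all genes tested. By spread over the 12 libraries, the members had a median SD of 0.56 (log2), beside 0.58 for all genes tested, which are close. Hoxa7 (SD 0.32) had a smaller spread than most genes, with 15.9% of genes under it, and Hoxc13 (SD 1.90) a larger spread than 97.6% of genes.

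HOX proteins bind DNA together with the TALE homeodomain proteins Pbx, Meis and Pknox. All 10 TALE genes had a row, 9 were tested and none was called by edgeR at FDR 0.05. Pbx2 was present at 4.73 to 7.83 FPKM, Meis1 at 0.49 to 3.78 and Tgif1 at 4.74 to 10.6. At an unadjusted p under 0.05 a single gene moved, Pknox2, lower on day 14 than on day 3 (log2 fold change -2.06, SE 0.720, edgeR FDR = 0.882), and it was highest in d-SMG day 3 at 40.1 CPM.

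Of 14 regulators of HOX genes, 13 had a row and were tested, and none was called by edgeR. The Polycomb genes Ezh2 (4.52 to 9.84 FPKM), Eed (14.5 to 35.6) and Suz12 (3.11 to 11.9) were present throughout. Kmt2a, the trithorax gene that keeps HOX genes on, ran from 10.3 CPM in s-GAG day 14 to 134 in control day 14. In these same 2 libraries, genes of at least 4 kb had their lowest and highest median deviations, -0.58 and 0.21 (log2). The part of gene length in the range of Kmt2a was not tested. Cdx1 and Cdx2, which switch on HOX genes in the embryo, were at or under 0.10 and 0.87 FPKM. At an unadjusted p under 0.05, Cdx1 was lower under s-GAG (log2 fold change -1.49, SE 0.629, edgeR FDR = 0.533) and Cdx2 higher on day 7 than on day 3 (5.25, SE 1.87, edgeR FDR = 0.999). In control, d-SMG, s-GAG and Alg, Cdx2 had 0, 0, 1 and 0 reads on day 3. On day 7 it had 29, 15, 0 and 5, so the fold change rests on 1 read of day 3.

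Among 18 genes of position in limb and body wall, levels were far apart. Tbx4 and Tbx5, the genes of hind and fore limb, were at or under 0.03 FPKM. Pitx1, another hind limb gene, ran from 0.03 FPKM in d-SMG day 14 to 1.97 in control day 3. Tbx15, a gene of the trunk skin and of muscle, ran from 13.1 to 47.0 FPKM and was highest in d-SMG day 3. Of these, 17 had a row, 10 were tested and none was called by edgeR. Under s-GAG the unadjusted p was under 0.05 for Lmx1b (log2 fold change 3.60, SE 1.33), En1 (-1.29, SE 0.515) and Tbx3 (-1.54, SE 0.631). Their edgeR FDRs were 0.502, 0.524 and 0.524, and such a p was found for 9.26% of all genes tested in this contrast. Lmx1b had 1, 1 and 4 reads in controls on days 3, 7 and 14, and 32, 52 and 3 with s-GAG. En1 stood at 29.7 CPM in control day 7, and at 5.83 and 9.76 in the controls of days 3 and 14.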

How the data were processed

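Wound tissue RNA was sequenced as paired reads. Per the submitters' processing notes, bcl2fastq, FastQC, TopHat2 and edgeR were used; their versions, the genome build, the annotation, the counter and its strand setting are not given in the sources used here. The authors deposited raw read counts per gene, and the deposited FPKM values are fragments per kilobase of transcript scaled to library size. In each of these files 1 column matches no described sample and was not used. The members and gene lists were chosen with earlier results of these data known.

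Counts were tested with edgeR 4.0.16 (TMM, filterByExpr, quasi-likelihood F test, day and treatment as factors, 6 residual degrees of freedom, Benjamini-Hochberg over 16110 genes, FDR 0.05) in R 4.3.3, after a test on simulated data. With 1 library per treatment and day, the spread comes from how treatments differ between days. Alternatives were DESeq2 1.42.0, limma 3.58.1 on log2(FPKM + 1) and log2(FPKM + 0.1), other scalings, no filter, and leaving out libraries. Correlations with Hoxc13 used log2 levels with a prior count of 2. Of the 32 members 27 passed the filter; Hoxa11, Hoxb5, Hoxc11, Hoxd11 and Hoxd13 did not. Intervals are exact 95% Poisson or binomial limits and, like the floor of 3 reads, cover counting error only. Named in full were the member with the highest mean FPKM in each cluster, groups 11 to 13 with at least 10 reads, called members, and, among members that reached 100 reads in some library, the 6 with the largest and the 3 with the smallest range. Values of 1 member that passed the filter are not reported here, though it is counted among the members.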

Additional observations from a re-analysis of the deposited data

Results flagged for a closer look

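Hoxd4 lay on opposite sides of its control on different days under d-SMG. It was 2.21 times as high as in the control on day 3 (95% counting interval 1.34 to 3.67, 37 against 32 reads) and 0.360 times on day 14 (0.204 to 0.606, 19 against 68 reads). The difference between the days was not tested, since each rests on 1 library a side, and d-SMG day 3 is the library with nearly no keratinocyte signal. Among the members named here it was the one pair with at least 2-fold differences in both directions and intervals clear of 1. Under Alg, Hoxd4 also lay on both sides of the same control libraries. There it was 2.55 times as high on day 3 (1.66 to 4.01) and 0.524 times on day 14 (0.325 to 0.825). In these shared controls Hoxd4 stood at 1.34 CPM on day 3 and 3.32 on day 14.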

How the results depend on the processing

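The number of members called was 0 in all 8 comparisons, and stayed 0 in every alternative run except these. DESeq2 gave 1 (Hoxc13) for any difference among the 4 treatments, for s-GAG and for Alg, and edgeR without d-SMG day 3 and s-GAG day 14, a choice made after seeing the data, gave 1 for s-GAG. Leaving out any single library gave 0 to 0. For Hoxc13 the log2 fold change over all alternatives ran from 1.47 to 4.995 for s-GAG (FDR 0.00106 to 0.885), from 1.38 to 4.66 for Alg (FDR 0.0119 to 1) and from 0.75 to 3.46 for d-SMG (FDR 0.420 to 1), the lowest from limma on log2(FPKM + 1), which understates low genes. Leaving out d-SMG day 3 gave an FDR of 0.0590 for s-GAG, and leaving out d-SMG day 14 a log2 fold change of 1.64 for d-SMG. The median likeness of the profile ran from 0.860 to 0.934. Leaving out Hoxb7, the highest member, moved the median shares to 22.3% for HOXA, 13.01% for HOXB, 46.1% for HOXC, 19.4% for HOXD, 6.68% for anterior, 62.3% for central and 30.1% for posterior members. CPM in place of FPKM gave 21.2% for HOXA, 11.4% for anterior and 19.5% for posterior members. Day is a term of the model, so each dressing is compared with control within days, and with treatment as the only term 0 members were called as well. Members with few reads, such as Hoxb8, limit what the depth can show.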
